A study of Homo sapiens with 32 samples.

Results

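The 102 genes described here are members of set 6, the cluster in which the study placed the genes with the highest expression after 14 days of tamoxifen in ZR-75-1 xenografts. ZR-75-1 is an estrogen receptor-positive line of human breast cancer. Set 6 holds 122 genes on 159 probes, and 20 of them (IGFBP5, IER3, PSCA, CLU, ERBB2, MUC1 and others) were left out by name, which leaves 102 genes on 126 probes, out of 253 named genes on 333 probes and 9912 probes on the array. The set was made by clustering log2 ratios of these same tumors, so the ratios of the members, and the counts called by a model fitted across all probes, are given as a description and support nothing further.

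Tumors were carried as fragments of 1 line under the skin of female nude (nu/nu) mice, and every mouse, control or treated, carried a slow-release estradiol (E2) pellet. Treated mice also received a tamoxifen pellet of 2.5 mg released over 60 days. Day 1 had 4 tumors from 2 mice, day 2 had 2 tumors from 2 mice, days 4 and 7 each had 4 tumors from 3 mice, and day 14 had 2 tumors from 2 mice. Each of the 16 tumors was hybridized in both dye orientations against 1 shared RNA pool of E2-only xenografts, taken on day 0 and on the first 3 treatment days (1, 2 and 4). No array held a single E2-only tumor and the pool held none of days 7 and 14, so on those days an effect of tamoxifen and a change with time alone cannot be told apart. The probes are human cDNA, the host tissue is mouse, and in whole tumor RNA fewer cells of a type and less RNA per cell cannot be told apart. Mice of days 1, 4 and 7 gave tumors of both flanks, so the spread between tumors of a day is not only a spread between animals.

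All values are log2 ratios of a tumor over the control pool unless a fold is named, so that 1 is a doubling and 0 is the level of the pool. They come from spot intensities corrected for background (normexp), normalized by loess and quantiles, and averaged over both dye orientations of a tumor. Where a gene had several probes, the brightest probe over all arrays was used. A gene counts as called higher where the limma adjusted p, over all 9912 probes, was under 0.05 with the ratio above 0. The files do not name the dyes of the intensity columns, so the direction is likely but not stated: it rests on the signs in the value table of the authors and on protein stains in the study (TFF3 lower, IGFBP5 higher), and if it were wrong, every sign here would turn. The median of all probes lay between -0.02 and 0.01 in every tumor. One dye-swap array was left out because its ratios followed those of another tumor. Before any sign was turned, r was 0.978 with the forward array of day 4 replicate 2. The tumor that the left-out array is labelled with, day 4 replicate 3, has the forward orientation only.

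The estrogen receptor is a transcription factor that binds DNA when E2 is bound to it and recruits coactivators to genes that drive growth, while it holds down other genes. Tamoxifen is converted in the body to compounds that compete with E2 for the receptor, and in breast cells the receptor so occupied tends to recruit corepressors. Genes with higher expression under tamoxifen can therefore include genes that the E2-bound receptor holds down, and genes that change because the cells stop dividing, differentiate or are cleared.

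As a group, the members were above the pool on all 5 days and stood highest at day 14. The median over the 102 genes, taken within each tumor and averaged over the tumors of a day, was 0.33 ± 0.05 (SD, n = 4) at day 1, 0.30 ± 0.09 (n = 2) at day 2, 0.21 ± 0.05 (n = 4) at day 4, 0.27 ± 0.12 (n = 4) at day 7 and 0.72 ± 0.03 (n = 2) at day 14. Both day 14 tumors (0.70 and 0.74) lay above each of the 14 earlier tumors, of which the highest was day 7 replicate 2 (0.43) and the lowest was day 4 replicate 3 (0.13). At day 14 the number of genes with a mean of at least 1.5-fold was 81 of 102, against 2.73% of all probes, and at day 4 it was 3, against 0.293%.

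At day 1, 35 of 102 genes were called higher, where 3.00% of all probes were called higher. At day 2 the count was 3 genes (background 0.141%), at day 4 it was 6 (0.373%), at day 7 it was 8 (0.242%) and at day 14 it was 70 (3.33%). No member was called lower on any day in limma, where 3.59%, 0.636%, 0.696%, 0.494% and 2.96% of all probes were called lower on the 5 days in turn. Because the members were chosen on these ratios, nothing is read from the counts against their background. The counts rest on single tumors. Without day 14 replicate 2 the count at day 14 was 4, and without replicate 1 it was 29. Without day 1 replicate 1, 2 or 3 the count at day 1 was 7, 10 or 14. At day 2 the count was 0 without replicate 1 of that day. At day 4 it was 0 without replicate 2 and 2 without replicate 5 of that day, and at day 7 it was 2, 0, 1 and 1 without replicates 1, 2, 3 and 4 of that day. Tumors of other days enter through the shared spread: the day 4 count was 3 without day 1 replicate 2 and 10 without day 1 replicate 4 or day 7 replicate 2, and the day 7 count was 0 without day 4 replicate 1, 2 without day 1 replicate 2, and 5 without day 1 replicate 1 or either tumor of day 14. With 1 mean per mouse in place of 1 per tumor, 3 genes were called higher at day 1, and none at days 4 and 7.

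**Figure D1:**
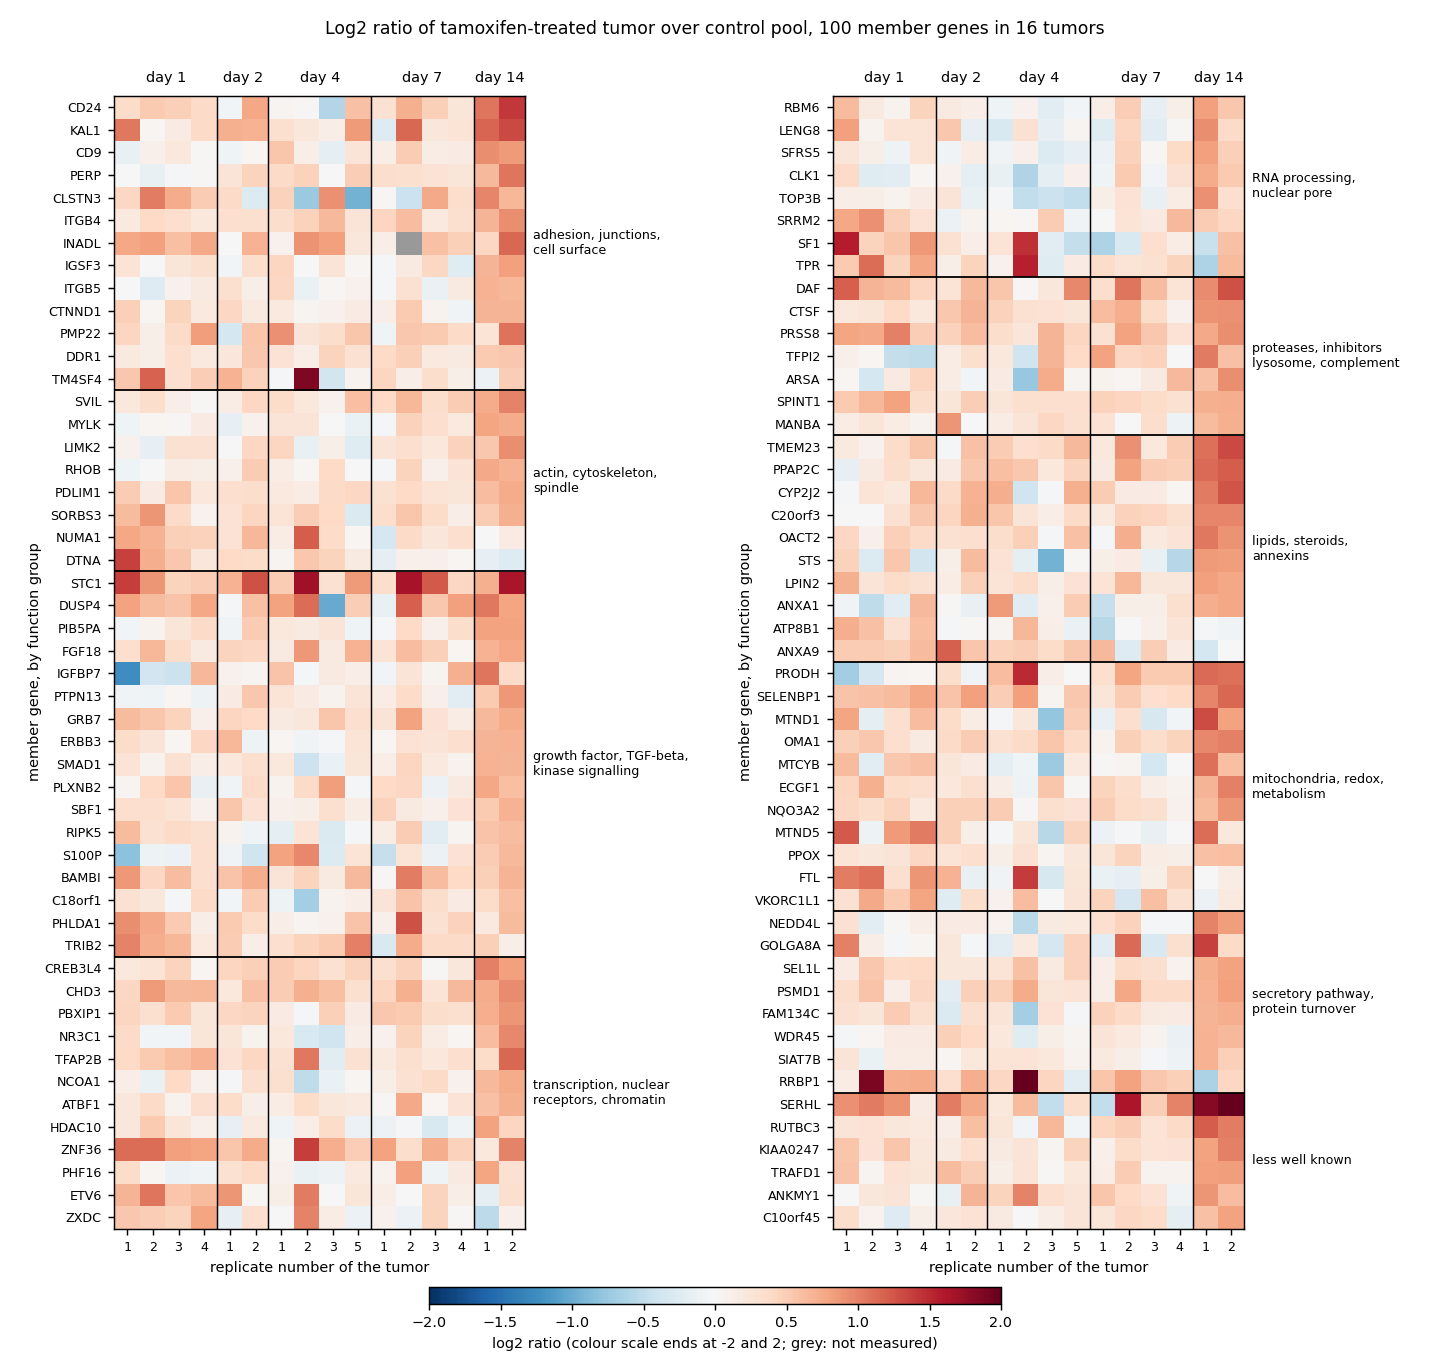
Log2 ratio over the control pool for 100 of the 102 genes (rows, in 10 groups of known function) in 16 tumors (columns, by day and replicate number). Red is above the pool and blue below it; the 2 columns of day 14 are red in nearly every row, and day 4 replicate 2 stands apart in rows such as RRBP1 (2.35) and TM4SF4 (1.86).

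Of the 102 genes, 27 were above the pool in all 16 tumors and 52 in at least 14 tumors, and 67 had a mean above 0 on each of the 5 days. Over the 5 days, 16 genes were called higher on no day, 61 on 1 day, 16 on 2 days, 7 on 3 days, 2 on 4 days and none on all 5. These counts are given without a share over all probes, and nothing is read from them. The 2 genes called on 4 days were CHD3, a chromatin remodeler, and SELENBP1, a selenium-binding enzyme of sulfur metabolism. For 6 genes the highest mean of any day stayed under 1.5-fold on the brightest probe (C18orf1, PHF16, DDR1, ATP8B1, ZXDC and S100P). The lowest was C18orf1 at 1.40-fold, but its dimmer probe had a log2 ratio of 0.79 ± 0.17 at day 14.

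The members did not share 1 time course. The mean was highest at day 14 for 83 genes, at day 1 for 17 and at day 2 for 2 (ANXA9 and BAMBI), and at days 4 or 7 for none. The 83 genes had medians of 0.27, 0.28, 0.21, 0.26 and 0.76 on the 5 days in turn. The lowest of them at day 14 was C18orf1 (0.48 on its brighter probe, 0.79 on the other). In 42 of the 83 the day 14 mean was more than 2 times the mean of every other day. The 19 early genes ran the other way, with medians of 0.63 at day 1 and 0.07 at day 14, and 13 of them had a day 14 mean below 0.2. This split was made on the values themselves and carries no test.

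**Figure D2:**
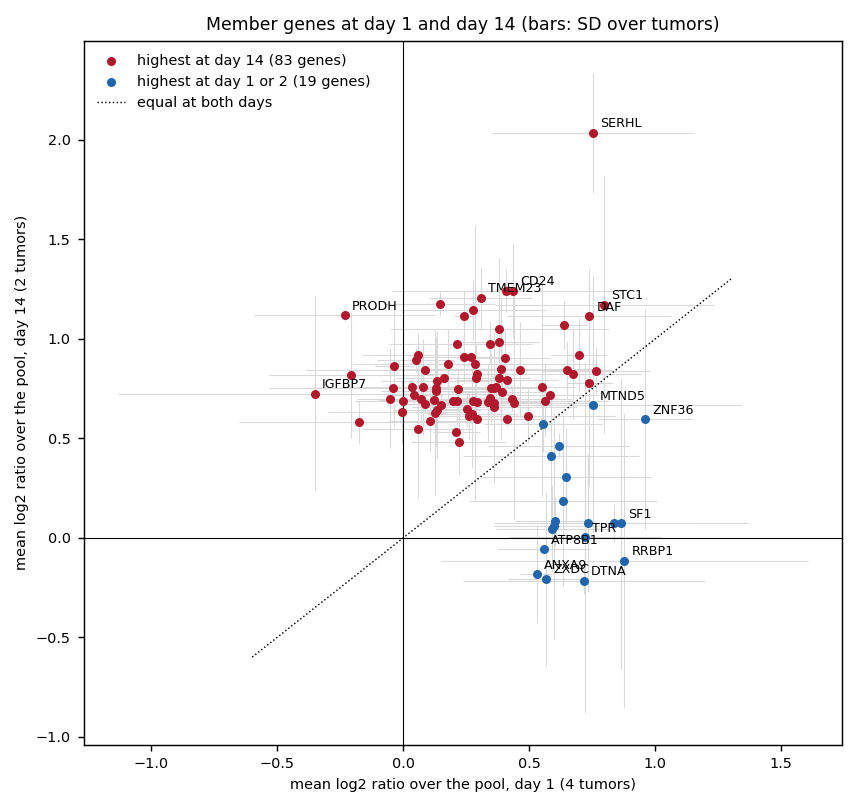
Mean log2 ratio at day 1 (x axis, 4 tumors) against day 14 (y axis, 2 tumors) for each of the 102 genes, with SD bars. The 83 genes highest at day 14 (red) lie between 0.48 and 2.04 on the y axis, and the 19 genes highest at day 1 or 2 (blue) lie between -0.22 and 0.67.

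Within the tumors, the 19 early genes had medians of 0.78, 0.75, 0.52 and 0.63 at day 1, 0.39 and 0.35 at day 2, 0.09, 0.99, 0.13 and 0.18 at day 4 (replicates 1, 2, 3 and 5), 0.08, 0.10, 0.33 and 0.33 at day 7, and -0.11 and 0.32 at day 14. The tumor called day 4 replicate 2 was above all tumors of day 1, and the other 3 tumors of day 4 were below all of them. The mean at day 4 was 0.35 ± 0.43 with replicate 2 and 0.13 ± 0.05 without it (n = 3). For the 83 late genes it was 0.22 with or without that tumor. In 15 of 102 genes the value in day 4 replicate 2 was more than 0.5 above the highest other tumor of day 4, and 11 of these 15 were early genes, among them RRBP1, TM4SF4, TPR, SF1, FTL, NUMA1, ZXDC, ETV6, ZNF36 and ATP8B1. No share over all probes stands beside these counts, so they do not show whether this tumor stood apart on the whole array. The left-out array, labelled a dye swap of day 4 replicate 3, followed the forward array of day 4 replicate 2 with no sign turned (r = 0.978). Which tumor is on these 2 arrays is therefore not certain. What sets day 4 replicate 2 apart was not tested. In 45 of 102 genes the lower day 14 tumor was above the highest tumor of days 1 to 7 (3.27% of all probes), and in 8 genes the lowest day 1 tumor was above both day 14 tumors (DTNA, NUMA1, ETV6, ZXDC, ATP8B1, ANXA9, FTL and VKORC1L1, against 11.5% of all probes).

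**Figure D3:**
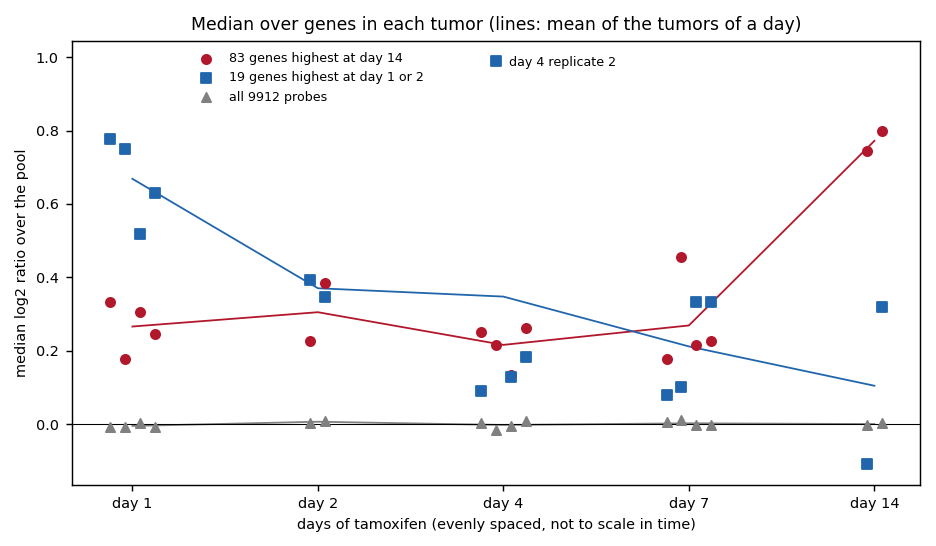
Median log2 ratio over the 83 late genes (red circles), the 19 early genes (blue squares) and all 9912 probes (grey triangles) in each tumor, by day, with lines through the mean of the tumors of a day. The late genes reach 0.74 and 0.80 at day 14, and the early genes run from 0.52 to 0.78 at day 1 and reach 0.99 in 1 tumor of day 4.

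The genes were placed in 10 groups by what they are known to do. The first holds 13 genes of cell adhesion, junctions and the cell surface. Its median was 0.29 at day 1 and 0.78 at day 14, with 1 gene called higher at day 1 and 10 at day 14. CD24, a small sialoglycoprotein anchored in the membrane of luminal epithelial cells, had 0.37, 0.52, 0.47 and 0.38 at day 1, -0.05 and 0.77 at day 2, 0.06, 0.03, -0.58 and 0.59 at day 4, 0.30, 0.71, 0.48 and 0.24 at day 7, and 1.07 and 1.41 at day 14. Its mean at day 14 was 1.24 ± 0.24, or 2.36-fold, above the range of all earlier tumors. KAL1 (now ANOS1), which encodes the secreted matrix protein anosmin, had 1.17 and 1.32 at day 14 (mean 1.24 ± 0.11), but single earlier tumors came close, with 1.06 in day 1 replicate 1 and 1.15 in day 7 replicate 2. INADL (now PATJ), a scaffold of the tight junction, had 0.77, 0.82, 0.61 and 0.75 at day 1 and 0.41 and 1.15 at day 14 on its brighter probe (no value in day 7 replicate 2). On its other probe INADL had 0.95, 0.00, 0.02 and 0.30 at day 1 and 1.45 and 0.91 at day 14, so the high level in all tumors of day 1 was seen on 1 of its 2 probes. TM4SF4, a membrane protein with several spans, was the only gene of this group that peaked early, with 0.53, 1.18, 0.33 and 0.49 at day 1 and -0.12 and 0.49 at day 14. The remaining genes had day 14 means between 0.53 (DDR1, a collagen receptor kinase) and 0.89 (CD9, a tetraspanin). They are the integrin subunits ITGB4 and ITGB5, the catenin CTNND1 of adherens junctions, the desmosome protein PERP, IGSF3, CLSTN3 and PMP22. The study placed the other named genes of each kind in its other sets on the same ratios, and the set 6 genes left out by name are not counted among them, so the direction of those genes follows from the sets and is no comparison with the members. Of 8 such genes of adhesion, none was called higher on days 1 or 14 and 7 were called lower at day 14, with the cadherin CELSR2 at -1.07 ± 0.22 and beta-catenin (CTNNB1) at -1.0 ± 0.24.

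The actin, cytoskeleton and spindle group has 8 genes. Its median was 0.27 at day 1 and 0.70 at day 14, with 4 called higher at day 1 and 5 at day 14. SVIL (supervillin, a protein that ties actin to the membrane) had 0.22, 0.34, 0.13 and 0.02 at day 1, 0.16 and 0.41 at day 2, 0.36, 0.22, 0.09 and 0.61 at day 4, 0.40, 0.66, 0.36 and 0.51 at day 7, and 0.75 and 1.00 at day 14, so that both tumors of day 14 were above all the others. MYLK, the kinase of the myosin light chain, was between -0.09 and 0.16 at day 1, and 0.78 and 0.74 at day 14, with no earlier tumor above 0.46. DTNA (dystrobrevin alpha, part of the dystrophin complex) ran opposite to them, with 1.37, 0.73, 0.54 and 0.23 at day 1 and -0.17 and -0.26 at day 14. NUMA1, which organizes the spindle poles, was also an early gene (0.60 ± 0.16 at day 1, 0.08 ± 0.12 at day 14). The cofilin kinase LIMK2, the small GTPase RHOB, PDLIM1 and SORBS3 lay between 0.61 and 0.74 at day 14. Of 6 other named genes of the group, none was called higher and 4 were called lower on each of days 1 and 14, with the tau gene MAPT at -1.12 ± 0.09 and ADD3 at -0.69 ± 0.25 at day 14.

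Growth factor, TGF-beta and kinase signalling is the largest group, with 17 genes. Its median was 0.27 at day 1 and 0.69 at day 14, with 5 called higher at day 1 and 10 at day 14. STC1 (stanniocalcin, a secreted glycoprotein hormone) was far above the pool from the first day on. It had 1.38, 0.88, 0.44 and 0.48 at day 1, 0.69 and 1.27 at day 2, 0.50, 1.70, 0.31 and 0.86 at day 4, 0.36, 1.64, 1.22 and 0.41 at day 7, and 0.71 and 1.63 at day 14. All 16 tumors were above 0 and the days overlapped throughout, with daily means from 0.80 ± 0.43 to 1.17 ± 0.65, and STC1 was called higher at day 14 only. DUSP4, a phosphatase that switches off MAP kinases, had 0.81, 0.64, 0.57 and 0.77 at day 1 and 1.05 and 0.79 at day 14, with 1 tumor far below the pool in between (day 4 replicate 3, -1.01), and was called on no day.

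Several members of this group act on TGF-beta and BMP signals. The decoy receptor BAMBI was above the pool in all 16 tumors. Its means were 0.56 ± 0.23, 0.65 ± 0.11, 0.38 ± 0.21, 0.52 ± 0.42 and 0.57 ± 0.14 on the 5 days in turn, and its tumors of day 7 ran from 0.02 to 1.02. The signal transducer SMAD1 had 0.20 ± 0.11 at day 1 and 0.69 ± 0.01 at day 14. C18orf1 (now LDLRAD4), an inhibitor of the pathway, had 0.22 ± 0.19 and 0.48 ± 0.17 on its brighter probe. Its other probe had 0.09 ± 0.13 at day 1 and 0.79 ± 0.17 at day 14. Of the receptor tyrosine kinase side, ERBB3 was at 0.69 ± 0.01 at day 14 and the adaptor GRB7 at 0.70 ± 0.06. The pseudokinase TRIB2 was an early gene, with 1.00, 0.72, 0.67 and 0.19 at day 1 and 0.48 and 0.13 at day 14, and PHLDA1 was another (0.59 ± 0.35 at day 1, 0.41 ± 0.31 at day 14). IGFBP7, a secreted binding protein, had the lowest day 1 mean of all members, -0.35 ± 0.78, with tumors from -1.24 to 0.66, and was at 0.72 ± 0.49 at day 14. FGF18, S100P, PTPN13, PLXNB2, RIPK5 (now DSTYK), SBF1 and the inositol phosphatase PIB5PA (now INPP5J) lay between 0.58 and 0.80 at day 14. Of 9 named genes of the group outside set 6, 7 were called lower at day 14, with the GDNF receptor GFRA1 at -2.53 ± 0.26 and IGFBP4 at -2.48 ± 1.04.

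**Figure D4:**
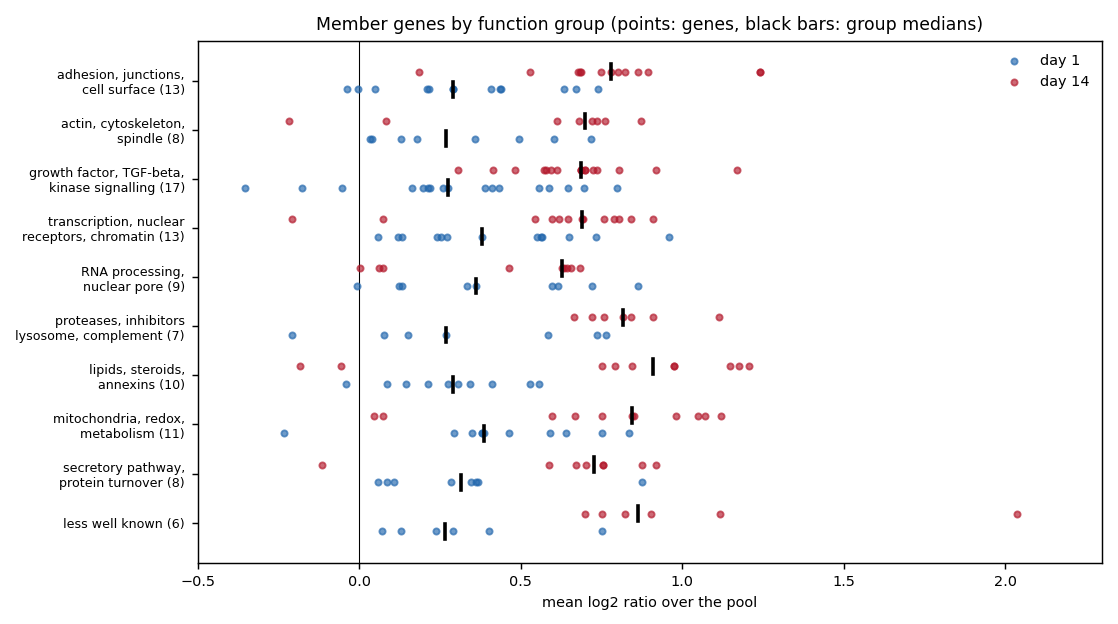
Mean log2 ratio of each gene at day 1 (blue) and day 14 (red) in the 10 function groups, with the number of genes in brackets and black bars at the group medians. The medians at day 14 lie between 0.63 (RNA processing) and 0.91 (lipids) and those at day 1 between 0.27 and 0.39.

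The 13 genes of transcription, nuclear receptors and chromatin had a median of 0.38 at day 1 and 0.69 at day 14, with 7 called higher at day 1 and 9 at day 14. CREB3L4, a transcription factor held in the endoplasmic reticulum membrane, was above the pool in all 16 tumors, with 0.22, 0.27, 0.44 and 0.03 at day 1 and 1.00 and 0.82 at day 14. CHD3, a subunit of the NuRD remodeling complex, was above the pool in all 16 tumors as well, with means of 0.65 ± 0.18, 0.40 ± 0.26, 0.53 ± 0.17, 0.51 ± 0.20 and 0.84 ± 0.15 on the 5 days in turn. ZNF36 (now ZKSCAN1), a zinc finger protein, had the highest day 1 mean of all 102 genes, 0.96 ± 0.18, with 1.12, 1.12, 0.81 and 0.78 in the tumors, and 0.21 and 0.99 at day 14. ZXDC, a zinc finger protein that takes part in MHC class II gene transcription, had 0.54, 0.49, 0.45 and 0.78 at day 1 and -0.52 and 0.10 at day 14. ETV6, an ETS-family repressor, followed the same order (0.73 ± 0.23 at day 1, 0.07 ± 0.35 at day 14).

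The glucocorticoid receptor NR3C1 was at 0.13 ± 0.22 at day 1, -0.09 ± 0.31 at day 4 and 0.79 ± 0.25 at day 14 on its brighter probe. On its other probe it was above the pool at day 4 (0.20 ± 0.23) and at 0.72 ± 0.13 at day 14. NCOA1, a coactivator of nuclear receptors, was at 0.12 ± 0.22, -0.07 ± 0.35 and 0.69 ± 0.06 on days 1, 4 and 14. NR3C1, on its brighter probe, and NCOA1 were called higher at day 14 only. PBXIP1 had 0.80 ± 0.10 at day 14. TFAP2B, ATBF1 (now ZFHX3), HDAC10 and PHF16 (now JADE3) lay between 0.54 and 0.76. Of 10 other named genes of the group, 6 were called lower at day 1 and 7 at day 14, and none higher on these days, with EGR3 at -1.81 ± 0.23 and MYBL2 at -1.16 ± 0.51 at day 14.

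The 9 genes of RNA processing, the nuclear pore and topoisomerase had the lowest median of the groups at day 14 (0.63) and 0.36 at day 1, with 2 called higher at day 1 and 4 at day 14, and their median at day 4 was -0.03. The group held 2 courses. RBM6, LENG8, the splicing factor SFRS5 (now SRSF5), the kinase CLK1 that acts on splicing factors, and TOP3B were highest at day 14, between 0.63 and 0.68. RBM6, an RNA-binding protein, had 0.63, 0.18, 0.07 and 0.45 at day 1 and 0.82 and 0.54 at day 14. LENG8 had 0.83, 0.06, 0.27 and 0.28 at day 1 and 0.92 and 0.39 at day 14, and in both genes day 14 overlapped with day 1. SF1, which binds the branch point of introns, peaked early instead, with 1.57, 0.45, 0.56 and 0.87 at day 1, 1.46 in day 4 replicate 2, and -0.44 and 0.59 at day 14. TPR, a filament protein of the nuclear pore basket, had 0.53, 1.12, 0.45 and 0.78 at day 1, 1.56 in day 4 replicate 2, and -0.62 and 0.63 at day 14. SRRM2 was an early gene too (0.62 ± 0.28 at day 1, 0.46 ± 0.06 at day 14). TOP3B had the lowest mean of all members at day 4 (-0.36 ± 0.22). Of 4 other named genes of the group, 1 was called lower at day 1 and 2 at day 14, with CSE1L at -0.82 ± 0.20 and TMPO at -0.62 ± 0.14 at day 14.

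All 7 genes of the proteases, protease inhibitors, lysosome and complement control were highest at day 14, where 6 were called higher and the median was 0.82, against 3 called and a median of 0.27 at day 1. DAF (now CD55), which protects cells from complement by speeding the decay of its convertases, had 1.20, 0.68, 0.64 and 0.43 at day 1, 0.28 and 0.65 at day 2, 0.56, 0.02, 0.23 and 0.96 at day 4, 0.35, 1.07, 0.62 and 0.28 at day 7, and 0.95 and 1.28 at day 14, above 0 in all tumors but with overlap between days. CTSF (cathepsin F, a lysosomal protease) had 0.90 and 0.92 at day 14 on its brighter probe, above every earlier tumor (at most 0.73). On its other probe CTSF had 1.01 and 0.76 at day 14 and 0.83 in day 7 replicate 2, so the days overlapped there. PRSS8 (prostasin, a serine protease of the epithelial surface) and SPINT1, a membrane inhibitor of such proteases, ran alongside each other: PRSS8 had 0.76 ± 0.21 at day 1 and 0.84 ± 0.12 at day 14, and SPINT1 had 0.58 ± 0.19 and 0.72 ± 0.02, each above the pool in all 16 tumors. The lysosomal enzyme MANBA was the lowest of the group at day 14 (0.67 ± 0.06), and the sulfatase ARSA was at 0.76 ± 0.24. The secreted inhibitor TFPI2 was below the pool at day 1 (-0.21 ± 0.33) and at 0.82 ± 0.32 at day 14. The 6 other named genes of the group were all called lower at day 14, with SERPINA6 at -2.56 ± 0.53 and SERPINA1 at -1.66 ± 0.20.

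The 10 genes of lipids, steroids and annexins had the highest median of the groups at day 14, 0.91, after 0.29 at day 1, with 3 called higher at day 1 and 6 at day 14. TMEM23 (now SGMS1), a sphingomyelin synthase, had 0.20, 0.09, 0.37 and 0.56 at day 1 and 1.10 and 1.31 at day 14. PPAP2C (now PLPP2), a lipid phosphate phosphatase, had -0.17, 0.17, 0.35 and 0.22 at day 1 and 1.14 and 1.22 at day 14. In both genes the tumors of day 14 were above all 14 others, whose highest value was 0.91 for TMEM23 and 0.81 for PPAP2C. CYP2J2, an epoxygenase of arachidonic acid, was at 1.15 ± 0.15 at day 14, the acyltransferase OACT2 (now MBOAT2) at 0.98 ± 0.11, C20orf3 (now APMAP) at 0.98, the steroid sulfatase STS at 0.84 and the phosphatidate phosphatase LPIN2 at 0.79 ± 0.03. The mean of STS was below the pool on days 4 and 7 (-0.20 ± 0.53 and -0.11 ± 0.33), but its tumors lay on both sides of it. They had 0.29, -0.18, -0.95 and 0.02 at day 4 and 0.11, 0.17, -0.15 and -0.56 at day 7. The lowest, day 4 replicate 3, has the forward orientation only.

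The 2 annexins, which bind membrane phospholipid, ran in opposite order. ANXA1 had -0.08, -0.51, -0.23 and 0.65 at day 1 and 0.73 and 0.77 at day 14. ANXA9 had 0.51, 0.51, 0.47 and 0.63 at day 1, 1.20 and 0.56 at day 2, 0.46, 0.49, 0.37 and 0.54 at day 4, 0.65, -0.26, 0.49 and 0.16 at day 7, and -0.36 and -0.01 at day 14. A dimmer probe of ANXA9 had -0.07 and 0.36 at day 14 (mean 0.14 ± 0.30) and 0.65 ± 0.18 at day 1. ATP8B1, a flippase of the plasma membrane, had 0.73, 0.59, 0.30 and 0.60 at day 1 and -0.04 and -0.07 at day 14, so ATP8B1, and ANXA9 on its brighter probe, were at or below the pool when the other 8 genes of the group stood highest. Of 9 other named genes of the group, 4 were called lower at day 1 and 8 at day 14, with the desaturase SCD at -2.04 ± 0.62 and the steroid dehydrogenase HSD17B1 at -1.44 ± 0.33 at day 14.

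The 11 genes of mitochondria, redox and metabolism had a median of 0.39 at day 1 and 0.85 at day 14, with 8 called higher on each of these days. PRODH, which starts the breakdown of proline in mitochondria, had -0.70, -0.33, 0.06 and 0.04 at day 1, 0.34 and -0.07 at day 2, 0.61, 1.50, 0.13 and 0.00 at day 4, 0.33, 0.78, 0.52 and 0.52 at day 7, and 1.14 and 1.10 at day 14. It was below the pool or at it at day 1 and above it in all tumors of days 7 and 14. SELENBP1 was above the pool in all 16 tumors and already high at day 1 (0.57, 0.59, 0.63 and 0.77), with 0.98 and 1.16 at day 14. FTL, the light chain of ferritin, which stores iron, was an early gene, with 1.02, 1.11, 0.33 and 0.88 at day 1, 1.40 in day 4 replicate 2, and 0.01 and 0.14 at day 14. VKORC1L1, a paralog of the vitamin K epoxide reductase, had 0.31, 0.75, 0.52 and 0.79 at day 1 and -0.11 and 0.20 at day 14.

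The 3 genes encoded by the mitochondrial genome, chosen for description after their values were seen, had 2 high phases. MTND1 (a subunit of respiratory NADH dehydrogenase) had 0.79, -0.20, 0.32 and 0.62 at day 1, 0.36 and 0.14 at day 2, -0.04, 0.22, -0.78 and 0.49 at day 4, -0.15, 0.33, -0.32 and -0.05 at day 7, and 1.30 and 0.80 at day 14. MTCYB (cytochrome b) had means of 0.39 ± 0.40, 0.20 ± 0.06, -0.20 ± 0.39, -0.07 ± 0.19 and 0.85 ± 0.36 over the same days, and MTND5 (of the same enzyme) had 0.75 ± 0.59, 0.30 ± 0.25, 0.03 ± 0.43, -0.08 ± 0.07 and 0.67 ± 0.65. In all 3 genes day 1 replicate 2 was below the pool while the other tumors of day 1 were above it, and day 14 replicate 1 was above replicate 2. Their means were higher on dye swaps than on forward arrays (MTCYB 0.37 and 0.07, MTND1 0.57 and 0.05, MTND5 0.64 and 0.06). Day 4 replicate 3, with the forward orientation only, was the lowest tumor of day 4 in each (-0.73, -0.78 and -0.55). The part of dye orientation in these courses was not tested. Copies of these genes in the nuclear genome may not be told from them by a cDNA probe. The nuclear genes OMA1, a protease of the inner mitochondrial membrane, and PPOX, an enzyme of heme synthesis, were above the pool in all 16 tumors, with 0.98 ± 0.03 and 0.60 ± 0.02 at day 14, and NQO3A2 (now CYB5R1) and ECGF1, a symbol that fits several genes, were at 0.75 ± 0.17 and 0.85 ± 0.24. Of 9 other named genes of the group, 4 were called lower and 1 (GPI) higher at day 1, and 7 were called lower at day 14, with ATP5D, a subunit of ATP synthase, at -1.60 ± 0.44.

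The secretory pathway and protein turnover group has 8 genes, with a median of 0.32 at day 1 and 0.73 at day 14, and 1 called higher at day 1 and 6 at day 14. NEDD4L, a ubiquitin ligase that removes the epithelial sodium channel from the cell surface, had 0.31, -0.23, 0.02 and 0.13 at day 1 and 1.00 and 0.84 at day 14, above every earlier tumor. GOLGA8A, a member of the golgin family with near-identical copies, had 1.37 and 0.38 at day 14, and 1.00 and 1.14 in single tumors of days 1 and 7 against -0.03 to 0.13 and -0.31 to 0.32 in the others. RRBP1, which ties ribosomes to the endoplasmic reticulum, had 0.14, 1.88, 0.73 and 0.75 at day 1, 0.34 and 0.73 at day 2, 0.41, 2.35, 0.43 and -0.21 at day 4, 0.56, 0.80, 0.54 and 0.48 at day 7, and -0.64 and 0.41 at day 14, so that both its highest values came from single tumors. The 2 probes of PSMD1, a subunit of the proteasome, differed by 0.54 at day 2 (0.12 ± 0.50 and 0.66 ± 0.36) and by less on the other days, with 0.75 ± 0.09 and 0.87 ± 0.01 at day 14. SEL1L, part of the machinery that removes misfolded proteins from the endoplasmic reticulum, was above the pool in all 16 tumors (0.37 ± 0.15 at day 1, 0.76 ± 0.07 at day 14). FAM134C (now RETREG3), WDR45 and the sialyltransferase SIAT7B (now ST6GALNAC2) lay between 0.59 and 0.70 at day 14. The 6 other named genes of the group were all called lower at day 14, with CLN8 at -1.92 ± 0.14 and RAB31 at -1.87 ± 0.24.

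The last group holds 6 genes whose function is less well known, and all were called higher at day 14 (median 0.86, against 0.27 at day 1, where 1 was called). SERHL, named for its likeness to serine hydrolases (chromosome 22, 42500579 to 42512560, GRCh38.p14), had the highest day 14 mean of all 102 genes, 2.04 ± 0.30 or 4.10-fold. Its values were 0.92, 1.03, 0.90 and 0.16 at day 1, 1.02 and 0.76 at day 2, 0.22, 0.63, -0.49 and 0.36 at day 4, -0.50, 1.62, 0.49 and 0.99 at day 7, and 1.82 and 2.25 at day 14. Both day 14 tumors were above all the others, while the tumors of day 7 ran from below the pool to 1.62. SERHL has a near-identical neighbor, SERHL2, which a cDNA probe may not tell from it. RUTBC3 (now SGSM3), a regulator of small G proteins, had 0.25, 0.29, 0.22 and 0.20 at day 1 and 1.20 and 1.03 at day 14. C10orf45 (now FAM107B) was the lowest of the group at day 14 (0.70 ± 0.15), and KIAA0247 (now SUSD6), TRAFD1 and ANKMY1 lay between 0.75 and 0.90.

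**Figure D5:**
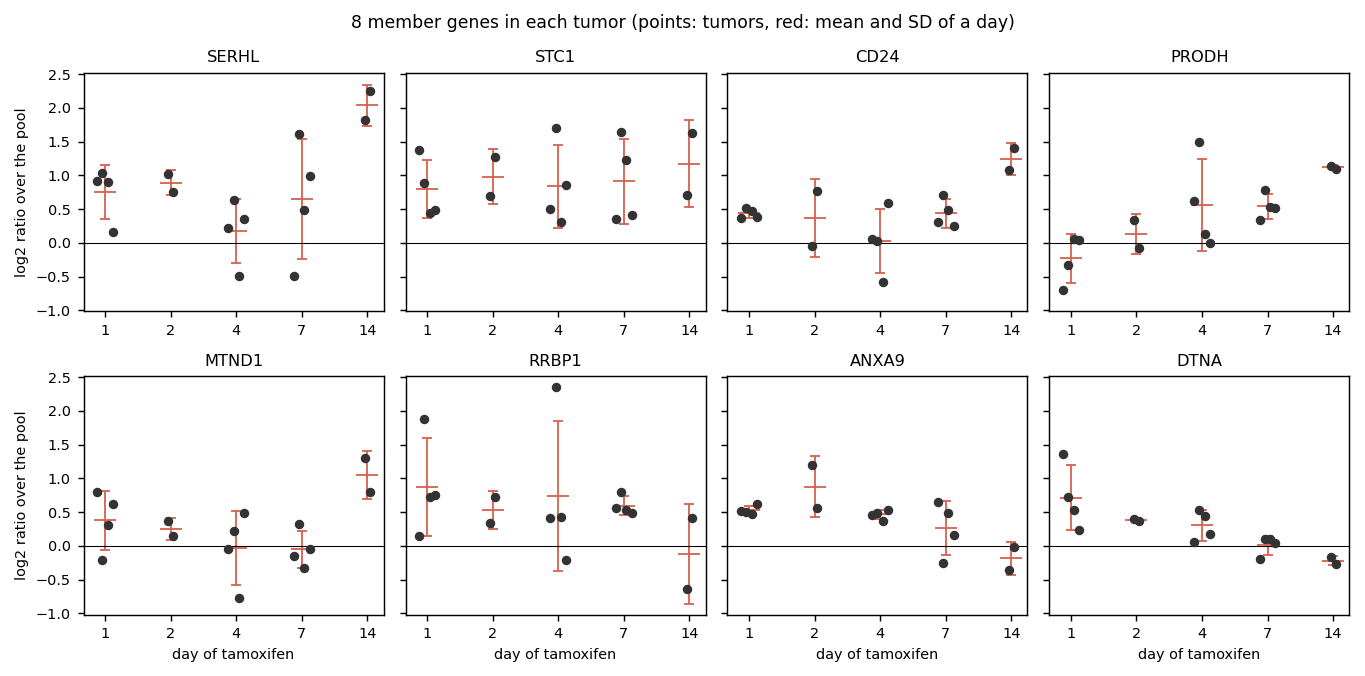
Log2 ratio over the pool of 8 genes in each tumor (black points) by day, with the mean and SD of each day in red. SERHL, CD24 and PRODH stand highest or near it in both tumors of day 14, STC1 is above 0 in all tumors, RRBP1 reaches 1.88 and 2.35 in single tumors of days 1 and 4, and ANXA9 and DTNA are below 0 in both tumors of day 14.

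Where a gene had more than 1 member probe, the probes mostly ran together. Of 21 such genes, the daily means differed by more than 0.5 in 2, of which PSMD1 is described above, and the median gap at day 14 was 0.11. The dye orientations of single genes often differed. Over the 15 tumors with both, the median over members of the gap between the forward and the swapped array of a tumor was 0.34, as it was over all probes, although the median member had means of 0.34 on forward arrays and 0.36 on dye swaps. Both means were above 0 in 84 of 102 genes and had opposite signs in 18, of which 4 were early genes. Among these 18 the means lay farthest apart in RRBP1 (1.44 on forward arrays, -0.27 on swaps), CLSTN3 (0.80 and -0.28), NUMA1 (0.89 and -0.07) and ANXA1 (-0.28 and 0.61). Of the others, SMAD1, C18orf1, S100P, NR3C1, PHF16, CLK1, STS and NEDD4L (-0.06 and 0.44) were below 0 on forward arrays. IGFBP7, PLXNB2, PIB5PA, HDAC10, SRRM2 and SF1 (0.66 and -0.01) were below 0 on swaps. In such genes the average over both orientations rests on values that disagree, and day 4 replicate 3, with the forward orientation only, is not balanced. The members were well above the scanner background, with signal to background ratios from 3.65 to 252 (median 9.46), and none reached the limit of the scanner.

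Only the 333 probes that the study listed as changed carry a gene name here. A marker on the array but outside that list could not be seen, so these counts do not show which markers the array holds. Of the luminal epithelium list 2 of 8 had a named probe, and both are members (CD24 and ERBB3, 1.24 ± 0.24 and 0.69 ± 0.01 at day 14). Of the fibroblast and matrix list 3 of 8 had one, and all were below the pool at day 14 (FN1 -0.61 ± 0.22, MGP -1.15 ± 0.53, LGALS1 -0.68 ± 0.37). The only named marker of macrophages and leukocytes was the member ANXA1 (1 of 5, 0.75 ± 0.03), the only one of smooth muscle was the member MYLK (1 of 4, 0.76 ± 0.03), and none of 4 endothelial markers was named. The host cells are mouse and the probes human, so the values of these markers need not come from the cell types of their lists. The part of a changed mix of cells in the members' ratios was not tested.

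To look for features shared by the members, the 250 bases before 1 transcript start per gene were read from the RefSeq promoter table (GRCh38.p14), which held 74 of the 102 genes. That start was the outer end of the gene in 54 and lay inside the gene, at an internal start, in 20. No member promoter had an estrogen response element, searched as GGTCA and TGACC with any 3 bases between them and at most 1 mismatch, against 0.736% of all 27305 promoters of the same length. The hexamer AGGTCA, 1 arm of such an element, on either strand, was found in 6 members (8.11%, against 12.1% of all promoters), the AP-1 motif TGANTCA in 3 (PERP, SMAD1 and TFPI2, 4.05% against 6.6%), the forkhead motif TGTTTAC in 4 (INADL, PERP, TRIB2 and CTSF, 5.41% against 2.98%) and the GC box GGGCGG in 45 (60.8% against 42.3%). The full element holds letters of the hexamer, so these searches overlap. A match of letters is a description and not a binding site, and elements farther away are not seen. The study searched promoter regions with another program (Dragon) and reported estrogen response elements in a similar proportion of the genes of all its sets. That search is unlike the one here, so the absence of a match in these 250 bases does not bear on its result. The 6 members with the hexamer are shown because both courses occur among them: MYLK, RBM6, CTSF and PSMD1 were highest at day 14, and TM4SF4 and ANXA9 at days 1 and 2. Each line gives 26 bases on the strand of the gene, 5′ to 3′, with the hexamer in capitals (AGGTCA, or TGACCT where it lies on the opposite strand), and counts its distance from the start in the table. For ANXA9 and MYLK that start is internal, 4986 and 263784 bases inside the gene, so their lines lie within the gene.
TM4SF4, chr3:149474641-149474666, plus strand, 46 bases before the start: aaagcacttcAGGTCAgggagaatgt
ANXA9, chr1:150982233-150982258, plus strand, 49 bases before an internal start: tccctaagagAGGTCAtctgactggc
MYLK, chr3:123620578-123620603, minus strand, 45 bases before an internal start: tgtctcatgtTGACCTtgtttagtca
RBM6, chr3:49939919-49939944, plus strand, 221 bases before the start: aactcccagcAGGTCAcgcggagtag
CTSF, chr11:66568704-66568729, minus strand, 113 bases before the start: cacgtgatagAGGTCAgtgactagct
PSMD1, chr2:231056665-231056690, plus strand, 192 bases before the start: ttctaatgccTGACCTcaggtgcaga
PSMD1, chr2:231056706-231056731, plus strand, 151 bases before the start: gcgggactccTGACCTcgaggaggtt
These 6 genes had day 14 means of 0.19 (TM4SF4), -0.18 (ANXA9), 0.76 (MYLK), 0.68 (RBM6), 0.91 (CTSF) and 0.75 (PSMD1), so genes with the hexamer lay on both sides of the split between early and late genes.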

How the data were processed

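RNA of 16 ZR-75-1 xenografts treated with tamoxifen was measured on 32 cDNA arrays against 1 control pool. The deposited scanner files hold uncorrected spot and local background intensity of both channels. The log2 ratios of the authors' value table were made by them with limma (background correction, loess and quantile normalization) and served as an alternative. Each column of that table has a median between -0.01 and 0.01, and its day 7 replicate 4 forward column barely followed the scanner file (r = 0.217). The analysis used limma 3.58.1, statmod 1.5.0 and R 4.3.3. Between 1 and 393 spots an array carry the mark 0 and were dropped, the intensity was corrected by normexp with an offset of 50, and loess within and quantile normalization between arrays followed. Ratios of 31 arrays were turned to tumor over pool and averaged per tumor. Forward arrays entered as log2 of channel 2 over 1 and swaps with the sign turned, which gives the direction of the value table. The model had 1 mean per day with the mouse as a random block (correlation 0.0206), eBayes and Benjamini-Hochberg adjustment over 9912 probes, and was tested on simulated data. The spread of the pool, 1 sample, is not in it. Replicates are separate tumors, in part of the same mouse.

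Gene names and sets come from the list of the study, and 101 of 102 genes were placed in RefSeq (78 by their symbol, 23 by an older one). The members, function groups, motifs and tests were chosen with earlier results of these data known. The genes described were, in each group, the 2 highest and the lowest at day 14 and the highest at day 1, those whose probes differed by over 0.5 on a day, and any called lower. Others are given to complete a group, and some results are not reported here. Alternatives covered background correction, normalization between arrays, spot marks, dim probes, the value table, the mouse block, 1 mean per mouse, a replicate block, the left-out array, the mean of a gene's probes and leaving out each tumor.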

Additional observations from a re-analysis of the deposited data

Results flagged for a closer look

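In 4 of 116 groups of 4 tumors checked, 1 tumor lay far from the other 3 by Dixon's criterion, which chance alone reaches in about 1 of 20 groups. CTSF was highest in day 1 replicate 3 on its brighter probe (0.40, the others 0.22 to 0.24). On its other probe, with 0.16, 0.36, 0.32 and 0.41 at day 1, replicate 3 did not stand apart. GOLGA8A was highest in day 1 replicate 1 (1.00, the others -0.03 to 0.13). SERHL was lowest in day 1 replicate 4 (0.16, the others 0.90 to 1.03). NEDD4L was lowest in day 4 replicate 2 (-0.53, the others 0.07 to 0.19).

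In 3 genes every tumor of day 14 was below the pool and every tumor of day 1 above it. The day 14 mean was -0.22 for DTNA, -0.057 for ATP8B1 and -0.18 for ANXA9 on its brighter probe (0.14 on the other, with -0.07 and 0.36 in the tumors), and DTNA and ANXA9 were also above the pool in every tumor of days 2 and 4. The lowest day 1 tumor was above both day 14 tumors in 8 of 102 members and in 11.5% of all probes. No share over all probes was taken for the narrower count of 3 genes, and nothing is read from it. The difference between the days was not tested.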

How the results depend on the processing

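The median over the members was above 0 on every day under every setting run. Without background correction it was 0.26 at day 1 and 0.59 at day 14, and with plain subtraction it was 0.67 at day 14. The count called higher moved more. At day 1 it was 53 without normalization between arrays, 56 with the authors' value table, 3 with 1 mean per mouse and 21 with the left-out array used as labelled. At day 2 it was 6 without background correction, 5 with plain subtraction, and 0 with a replicate block or with the left-out array used. At day 4 it was 12 without background correction, 13 with plain subtraction, 10 without normalization between arrays, 11 with a replicate block, and 0 with 1 mean per mouse or with the left-out array used. At day 7 it was 13 without background correction, and 0 with the value table, with 1 mean per mouse or with the left-out array used. At day 14 it stayed within 1.5 times under all these settings. Leaving out 1 tumor gave counts of 7 to 48 at day 1, 0 to 4 at day 2, 0 to 10 at day 4, 0 to 10 at day 7 and 4 to 73 at day 14, and medians of 0.31 to 0.35, 0.24 to 0.37, 0.20 to 0.24, 0.21 to 0.31 and 0.70 to 0.74. The causes were not tested.

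The replicate numbers do not pair the tumors: deviations of tumors with the same number had a median correlation of 0.03 across days, and those with different numbers -0.02. With the replicate block, the counts were 38, 0, 11, 7 and 54 and the medians 0.37, 0.27, 0.24, 0.26 and 0.71.

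Values of single genes at days 1 and 14 were followed under the alternatives in 38 of the 102 genes. Of these values, 47 moved by more than the spread between tumors, 1018 did not, and none of a called gene changed sign. SERHL at day 14 was 1.46 without background correction. The early genes at day 4 without replicate 2 were examined after the values had been seen.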

Other observations

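Of the 101 members with a position in GRCh38.p14, 14 lie on chromosome 1 and 10 on chromosome 22 (LIMK2, PLXNB2, PIB5PA, SBF1, HDAC10, TOP3B, ARSA, PRODH, RUTBC3 and SERHL), which is 9.9% of the members against 6% of the 150 other named genes that could be placed. The 10 genes of chromosome 22 had a median of 0.75 at day 14, and 6 of them are read by probes whose names start with stSG, of which the array holds 448. All 3 named genes of the mitochondrial genome are members. These counts are a description, since the named genes are those that the study selected.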
